A study of Mus musculus with 9 samples.

Results

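The genes described here encode enzymes that begin, extend and cap many of the sugar chains on the cell surface. They are the GalNAc transferases, the sialyltransferases and the fucosyltransferases, with C1galt1, C1galt1c1, Gcnt1 and Gcnt2. They were taken by gene name from the protein-coding genes of the count table, which gave 52 entries for 51 gene symbols out of 50813 genes listed (St6galnac2 has 2 overlapping entries). They were measured by poly(A) RNA-seq in Lewis Lung Carcinoma (LLC) cells, a mouse lung carcinoma line that was bought carrying a stable luciferase gene, grown in culture without further treatment. The 3 lines were WT cells and the CD47 KO clones E3 and E5, which were made by electroporation of Cas9 with a guide RNA against Cd47 and expanded from single cells, with 3 libraries each from independent biological replicates. Each knockout genotype is 1 clone, so the effect of losing CD47 and the effect of the choice of clone cannot be told apart, and both clones are compared with the same 3 WT libraries.

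The sugar chains on serine and threonine of mucin-like proteins are begun by the GALNT enzymes, which attach the first N-acetylgalactosamine (GalNAc). C1GALT1, which needs its chaperone C1GALT1C1 (COSMC), adds galactose to give core 1, and GCNT1 branches core 1 to core 2. Sialyltransferases then cap chains with sialic acid in a linkage that names the family: ST3GAL and ST6GAL act on galactose, ST6GALNAC on GalNAc, and ST8SIA on sialic acid itself. Fucosyltransferases add fucose, FUT8 to the innermost sugar of N-glycans and FUT1, FUT4 and FUT7 to outer antennae. Many GALNT isoforms share acceptor sites, whereas others, such as GALNT3 on FGF23, have substrates of their own. Altered O-glycan initiation and sialylation are well-known features of carcinoma cells.

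The libraries held 44257404 to 55095219 counts. Replicate libraries of 1 line differed by more than counting error in every pair, and replicate 3 of clone E3 stood apart, at 189 and 229 times the counting variance (chi-square over its degrees of freedom) against its own replicates, and 4.81 to 38.8 in the other pairs. Values without that library are given beside a number of the results below. Cd47, the edited gene, was present at 187, 179 and 182 CPM (counts scaled to library size) in WT, at 47.4, 36.7 and 49.6 CPM in E3 and at 15.5, 18.6 and 18.1 CPM in E5. These levels fell in both clones, by 2.03 and 3.39 on the log2 scale (adjusted p = 4.9e-06 and 1.07e-07, quasi-likelihood test of edgeR, Benjamini-Hochberg adjusted). The 6 leukocyte markers had at most 3 counts in every library, and the 4 endothelial markers summed to at most 0.253 CPM. The 4 mesenchymal markers summed to 6020 to 6510 CPM in WT, 6212 to 6951 CPM in E3 and 7129 to 8533 CPM in E5. Within this sum, Vim had means of 4166, 5480 and 6571 CPM in WT, E3 and E5 (SD 45.0, 767 and 414, n = 3). Fn1 went the other way, with means of 1929, 1097 and 1220 CPM (SD 275, 482 and 335). The 8 lung epithelial markers summed to 450.5 to 458 CPM in WT, 127 to 198 CPM in E3 and 896 to 957 CPM in E5, although 5 of the 8 had at most 3 counts in every library. Almost all of each sum came from 2 keratins. Krt8 had means of 191, 38.1 and 370 CPM in WT, E3 and E5, and Krt18 had 264, 125 and 558 CPM. The part of this keratin difference in the results below was not tested.

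Of the 52 entries, 31 passed the filter on low counts and were tested among 14593 genes. The other 21 had at most 10 counts in any library, and 10 of them had no count in any: Galnt14, Galnt17, Galntl5, St6gal2, St6galnac1, St6galnac5, St8sia2, St8sia3, St8sia4 and Fut9. A count of 0 allows for up to 3 counts in a library, so these transcripts were not detectable at this depth. St8sia2 and St8sia4 make polysialic acid, and St6galnac1 makes the sialyl-Tn antigen. Fut7, which completes the sialyl Lewis x antigen, had at most 3 counts in any library.

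4 of the promoters are shown because among the GALNT genes theirs had the largest differences between lines or, for St8sia1, because it was the only tested ST8SIA gene. Each is the 250 bases directly upstream of the start of the GENCODE vM39 canonical transcript, written 5′ to 3′ on the strand of the gene in GRCm39 coordinates, with CpG dinucleotides in capitals.
Galnt3, chr2:65955339-65955588, minus strand: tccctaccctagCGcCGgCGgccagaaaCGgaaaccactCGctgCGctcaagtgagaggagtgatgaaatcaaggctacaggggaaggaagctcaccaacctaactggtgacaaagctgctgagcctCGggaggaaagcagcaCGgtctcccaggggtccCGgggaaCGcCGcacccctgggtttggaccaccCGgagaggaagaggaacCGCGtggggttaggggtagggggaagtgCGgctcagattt
Galnt12, chr4:47091659-47091908, plus strand: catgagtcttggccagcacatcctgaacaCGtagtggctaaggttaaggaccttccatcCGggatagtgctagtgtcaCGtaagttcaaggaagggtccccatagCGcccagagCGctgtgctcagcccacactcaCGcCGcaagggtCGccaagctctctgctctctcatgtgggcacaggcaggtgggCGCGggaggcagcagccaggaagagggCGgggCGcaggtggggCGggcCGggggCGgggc
Galnt15, chr14:31750506-31750755, plus strand: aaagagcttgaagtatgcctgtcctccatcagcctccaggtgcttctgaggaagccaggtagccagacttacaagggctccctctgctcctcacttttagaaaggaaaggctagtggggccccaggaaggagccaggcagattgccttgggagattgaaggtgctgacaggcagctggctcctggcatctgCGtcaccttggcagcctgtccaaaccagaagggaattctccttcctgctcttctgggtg
St8sia1, chr6:142910179-142910428, minus strand: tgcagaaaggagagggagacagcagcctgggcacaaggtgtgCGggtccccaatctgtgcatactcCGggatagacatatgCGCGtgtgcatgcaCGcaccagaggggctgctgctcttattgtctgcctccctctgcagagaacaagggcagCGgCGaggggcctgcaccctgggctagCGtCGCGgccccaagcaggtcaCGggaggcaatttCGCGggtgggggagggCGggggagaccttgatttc

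Galnt3 and Galnt12 each had 15 CpG in this window and St8sia1 had 14, against a median of 8 over 21446 promoters. Of all promoters, 72.1% had fewer CpG than Galnt3 and Galnt12, and 69.3% had fewer than St8sia1. Galnt15 had 1 CpG, and 7.40% of promoters had fewer. For Galnt15 the window ends upstream of the gene start in the deposited table, which lies at chr14:31750946, because the annotation releases differ. The GC box GGGCGG, searched on both strands, occurred 3 times upstream of Galnt12 and once upstream of St8sia1 and was absent from the windows of Galnt3 and Galnt15, while 36.4% of all promoters held it. None of the 4 windows held TGANTCA (6.17% of promoters), CACGTG (6.25%) or TATAAA (11.9%). These matches describe letters only.

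A gene was called when its adjusted p was under 0.05 and its log2 fold change was above 1 or below −1. In clone E3, 4 of the 31 tested members were called against WT (12.9%, against 9.82% of all genes tested), with Galnt18 and St3gal5 higher (5.43% of all genes were) and Galnt3 and Fut1 lower (4.39%). In clone E5, 7 members were called against WT (22.6%, against 8.21% of all genes), with Galnt10, Galnt15 and St3gal5 higher (2.69% of all genes) and Galnt3, Galnt12, Galnt13 and St8sia1 lower (5.52%). Between the clones, 7 members were called (22.6%, against 11.0% of all genes), of which Galnt3, Galnt15 and Fut1 were higher in E5 (3.49% of all genes) and Galnt12, Galnt13, Galnt18 and St8sia1 were lower in E5 (7.52%). The median log2 fold change of the 31 members was −0.06 in E3 and 0.14 in E5, against medians of 0.01 and −0.00 over all genes. Between the clones it was 0.12, against −0.01 over all genes. At an adjusted p under 0.05 without a limit on size, 15 members differed in E3 (8 higher and 7 lower), 9 in E5 (5 higher and 4 lower) and 17 between clones (10 higher and 7 lower in E5). Over all genes these shares were 30.5% in E3 (15.7% higher and 14.7% lower), 20.6% in E5 (8.96% higher and 11.7% lower) and 31.9% between clones (14.7% higher and 17.2% lower in E5). All lines share 1 estimate of the spread in this fit, and without replicate 3 of E3 the counts of members at an adjusted p under 0.05 were 18 in E3, 20 in E5 and 22 between clones, against 43.2%, 42.0% and 44.1% of all genes.

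**Figure D1:**
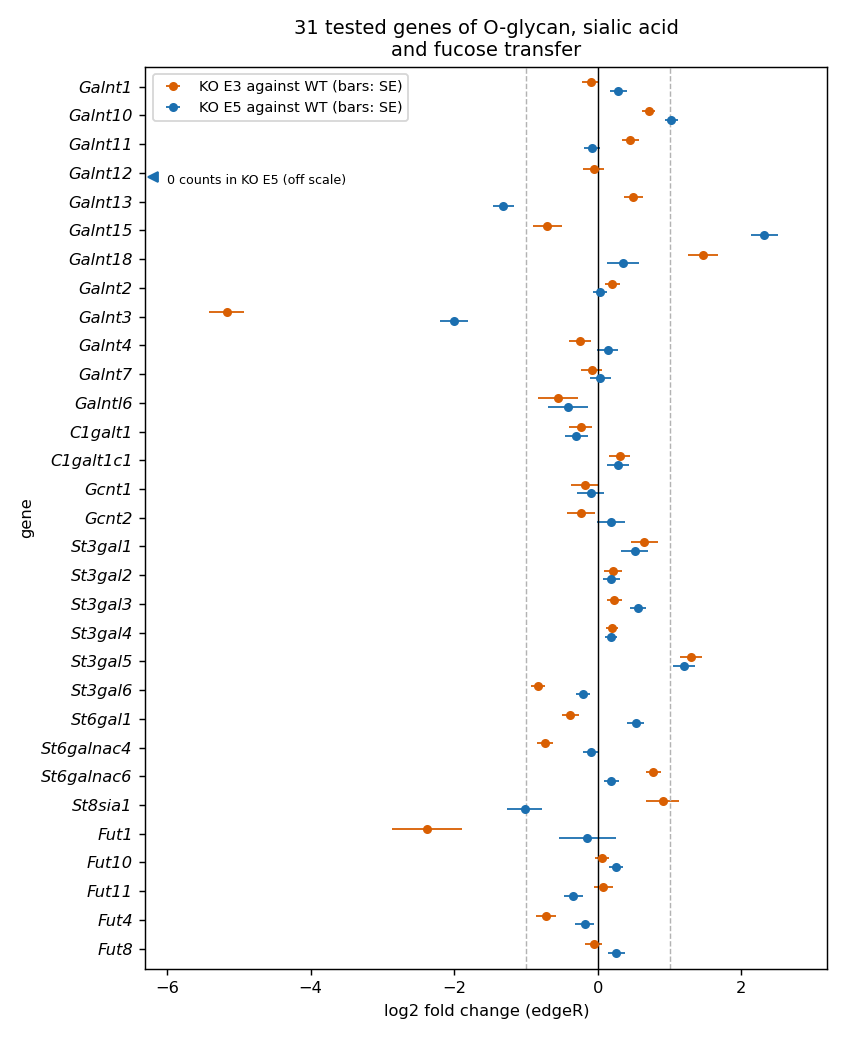
Log2 fold change from edgeR, with its standard error as a bar, of the 31 tested members in clone E3 (orange) and clone E5 (blue) against WT, with dashed lines at −1 and 1. Most points lie between the dashed lines. Galnt3 lies to the left of them in both clones, much further in E3 (−5.17) than in E5 (−2.00). Fut1 lies to the left in E3 (−2.38) and Galnt15 to the right in E5, and Galnt12 had 0 counts in E5 and is drawn at the edge as an arrow.

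None of the 3 most abundant GALNT transcripts was called in any comparison. On a per-length scale (FPKM, CPM per kilobase of annotated exon), Galnt7 stood at 21.6 ± 0.605 FPKM, Galnt1 at 20.1 ± 1.59 and Galnt2 at 16.8 ± 0.158 in WT (SD, n = 3), and Galnt7 and Galnt1 did not differ beyond their spread. With the longest transcript as the length, Galnt1 came first at 39.9 FPKM, ahead of Galnt2 at 29.3 and Galnt7 at 28.9. These 3 broadly expressed isoforms made up 80.2% of the summed FPKM of the 19 GALNT genes in WT, 81.8% in E3 and 81.6% in E5. The log2 fold changes of Galnt2 and Galnt7 in the 3 comparisons were no larger than 0.21 and 0.12 in size. Galnt1 was 0.38 higher in E5 than in E3 (SE 0.12, adjusted p = 0.0326, edgeR) and did not pass against WT in either clone. Without replicate 3 of E3, Galnt1 passed in E5 (0.29, SE 0.06, adjusted p = 0.00323) and between the clones (0.27, adjusted p = 0.00909, edgeR). Without the same library, Galnt2 passed in E3 (0.29, SE 0.06, adjusted p = 0.0033) and between the clones (−0.25, adjusted p = 0.00754, edgeR), and Galnt7 passed in none of the 3 comparisons. The summed level of the family was 73.1 ± 2.19 FPKM in WT, 71.6 ± 10.7 in E3 and 78.4 ± 1.00 in E5, and without replicate 3 the mean of E3 was 77.8.

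**Figure D2:**
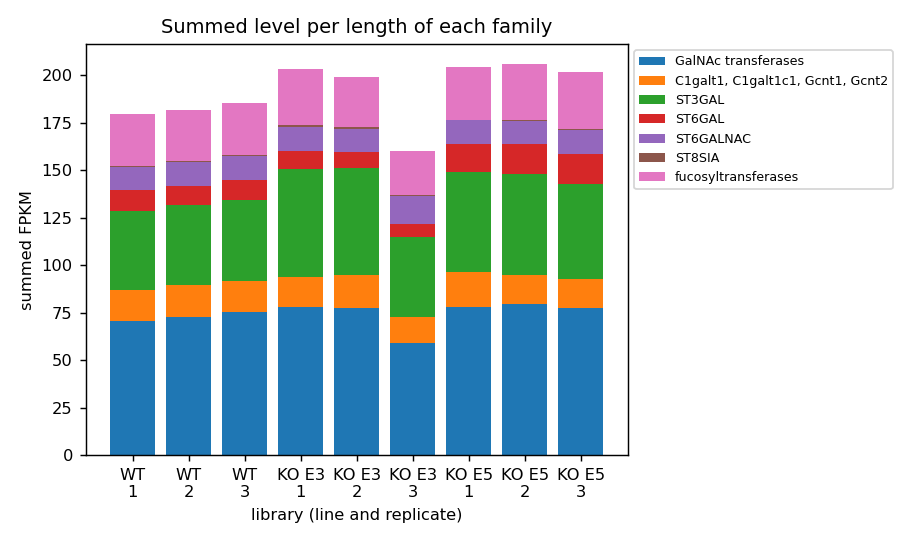
Summed FPKM of each enzyme family in each of the 9 libraries, as stacked bars. The GALNT segment is between 70.9 and 79.5 FPKM in every library except replicate 3 of E3, where it is 59.3, and the ST3GAL segment is larger in 5 of the 6 knockout libraries than in WT.

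Galnt3 (chr2:65913110-65955338) fell in both clones. It encodes the isoform that glycosylates the hormone FGF23. Its level was 17.5, 17.7 and 17.7 CPM in the WT libraries, 0.640, 0.402 and 0.418 CPM in E3, and 3.17, 4.62 and 5.46 CPM in E5. The 3 lines did not overlap, with WT highest, E5 between and E3 lowest. The decrease against WT was 35.9-fold in E3 (log2 fold change −5.17, SE 0.24, adjusted p = 1.01e-06) and 3.99-fold in E5 (−2.00, SE 0.19, adjusted p = 5.53e-05, edgeR). The difference between the clones was itself called (3.17, SE 0.24, adjusted p = 7.19e-06). The summed level of the lung epithelial markers, given above and almost all from Krt8 and Krt18, was also lowest in E3, but it was higher in E5 than in WT.

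Galnt12 (chr4:47091909-47123070), which encodes an isoform of the digestive tract linked to inherited colorectal cancer risk, was not detected in E5. It was present at 5.33, 4.98 and 4.79 CPM in WT and at 4.30, 5.24 and 4.99 CPM in E3, and it had 0 counts in all 3 E5 libraries. WT and E3 overlapped (log2 fold change −0.06, SE 0.15, adjusted p = 0.809, edgeR), a difference whose sign turned under another scaling. Against a floor of 3 counts per library, E5 was at least 81.6-fold lower than WT and at least 78.5-fold lower than E3 (adjusted p = 5.52e-07 and 3.33e-07, edgeR).

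The genes around Galnt12 were therefore read as well. Of the 20 tested genes nearest to it, 10 on each side, 19 had a log2 fold change below 0 in E5 and 12 of these passed an adjusted p under 0.05, all of them lower (11.7% of all genes tested were lower in E5). In E3, 14 of the same 20 genes were below 0, and 6 passed, 4 of them lower (14.7% of all genes) and 2 higher (15.7%). The median of the 20 was −0.52 in E5 and −0.25 in E3, against −0.00 and 0.01 over all genes. The tested gene next to Galnt12 on its upstream side is Anks6, which was named after its values were seen. It stood at 1.73 ± 0.176 CPM in WT, 2.15 ± 0.813 in E3 and 0.106 ± 0.0535 in E5 (SD, n = 3), a log2 fold change of −3.96 in E5 (SE 0.40, adjusted p = 6.91e-05, edgeR). Tgfbr1, the next tested gene downstream, differed by −0.47 in E5 (SE 0.19, adjusted p = 0.1). The medians around the other members called in at least 1 comparison lay between −0.42 (St3gal5) and 0.24 (Galnt10) in E5. DNA copy number was not measured.

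**Figure D3:**
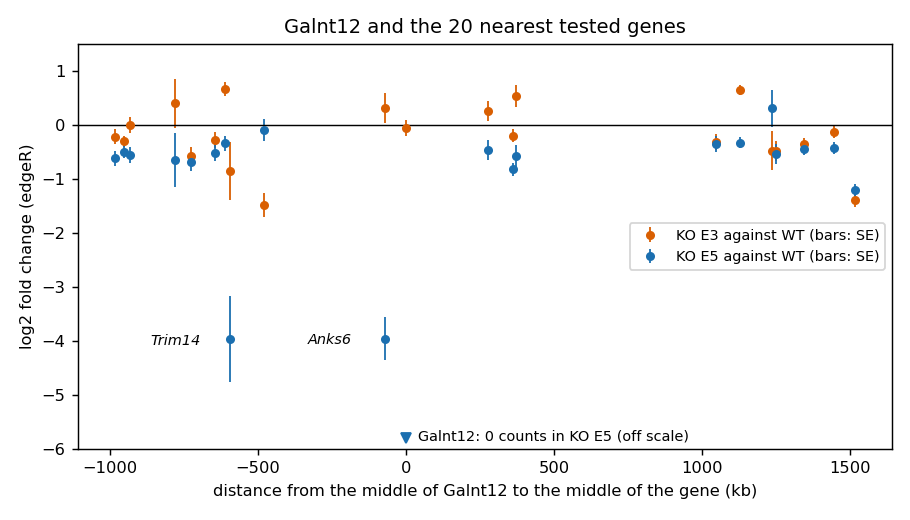
Log2 fold change with standard error of the 20 tested genes nearest to Galnt12 against their distance from it in kilobases, for clone E3 (orange) and clone E5 (blue) against WT. In E5 the points lie mostly below 0, around a median of −0.52. Anks6 and the weakly expressed Trim14 lie near −4, and Galnt12 itself is drawn at the lower edge because it had 0 counts. Tmeff1, the furthest gene downstream, was called lower in both clones (−1.21 in E5 and −1.39 in E3).

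Galnt15 (chr14:31750946-31784154) was called against WT in E5, where it rose, and not in E3. It encodes a GALNT isoform whose own acceptors are poorly known. Its level was 3.95, 2.71 and 4.05 CPM in WT, 2.76, 2.07 and 1.74 CPM in E3, and 17.4, 19.0 and 17.2 CPM in E5. Every E5 library lay far above all others, while WT and E3 overlapped. The increase in E5 was 4.996-fold (log2 fold change 2.32, SE 0.19, adjusted p = 1.65e-05), and E5 exceeded E3 by 3.02 on the log2 scale (SE 0.20, adjusted p = 2.26e-06, edgeR). In E3 the log2 fold change was −0.70 (SE 0.20, adjusted p = 0.0229), below the size needed for a call.

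Galnt13 and Galnt18 were each highest in E3. Galnt13 encodes an isoform known from neural tissue that makes Tn antigen. It stood at 8.89, 8.03 and 7.01 CPM in WT, 11.99, 12.19 and 9.59 CPM in E3, and 3.08, 3.27 and 3.27 CPM in E5, so the 3 lines did not overlap. Its fold change was called in E5 (log2 −1.31, SE 0.14, adjusted p = 0.000113) and between the clones (−1.81, SE 0.14, adjusted p = 8.5e-06), and in E3 it was 0.50 (SE 0.14, adjusted p = 0.019, edgeR). Galnt18, which belongs to a divergent branch of the family, stood at 1.38, 1.28 and 1.48 CPM in WT, 4.28, 2.68 and 4.51 CPM in E3, and 1.96, 1.74 and 1.59 CPM in E5. All E3 libraries lay above the rest, with replicate 2 the lowest of the 3. The increase in E3 was 2.77-fold (log2 1.47, SE 0.21, adjusted p = 0.000686), and in E5 the log2 fold change was 0.35 (SE 0.22, adjusted p = 0.307). Between the clones it was −1.12 (SE 0.21, adjusted p = 0.00263, edgeR), and without replicate 3 of E3 it was −0.98, which is no longer a call.

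Galnt10, which prefers peptides that already carry GalNAc, was higher in both clones. Its level was 18.4, 19.0 and 18.5 CPM in WT, 30.5, 33.4 and 27.7 CPM in E3, and 36.6, 38.3 and 39.2 CPM in E5. The 3 lines did not overlap. The log2 fold change was 0.71 in E3 (SE 0.10, adjusted p = 0.000426), below the size needed for a call, and 1.03 in E5 (SE 0.10, adjusted p = 3.85e-05), and the clones differed by 0.32 (SE 0.09, adjusted p = 0.0262, edgeR).

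**Figure D4:**
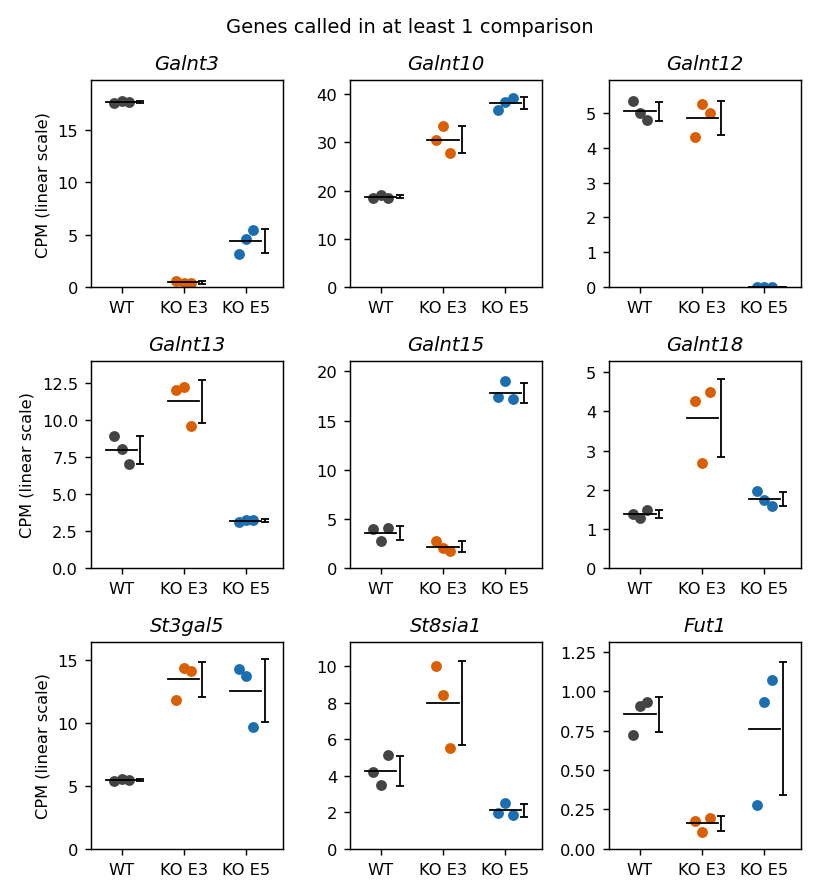
CPM on a linear axis from 0 in each library (points), with the mean as a line and the SD as a bar (n = 3), for the 9 members called in at least 1 comparison. Galnt3 is low in both clones, Galnt12 is at 0 in E5, Galnt15 is high in E5, and St3gal5 is above WT in every knockout library.

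The members C1galt1, C1galt1c1, Gcnt1 and Gcnt2 showed no call, while Gcnt4, a core 2 enzyme that is not a member, was called and is given below. These 4 members were all tested, and none passed an adjusted p under 0.05 in any of the 3 comparisons. Their largest log2 fold changes were 0.30, 0.30, 0.18 and 0.42 in size. Without replicate 3 of E3, C1galt1 passed in E5 (−0.29, SE 0.06, adjusted p = 0.00191) and between the clones (−0.25, adjusted p = 0.00884), and C1galt1c1 passed in E5 (0.29, SE 0.09, adjusted p = 0.0212, edgeR), each below the size needed for a call. Gcnt1 and Gcnt2 passed in no comparison without it. The sum of these 4 genes was between 13.5 and 18.2 FPKM in the 9 libraries, with replicate 3 of E3 the lowest.

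Among the sialyltransferases, St3gal5, the GM3 synthase that opens the ganglioside pathway, was the only gene of the 6 ST3GAL genes that was called. It stood at 5.37, 5.53 and 5.47 CPM in WT, 11.9, 14.4 and 14.1 CPM in E3, and 14.2, 13.7 and 9.69 CPM in E5. All 6 knockout libraries lay above the WT libraries, and the clones overlapped. The increase was 2.46-fold in E3 (log2 1.30, SE 0.16, adjusted p = 0.000232) and 2.297-fold in E5 (1.20, SE 0.16, adjusted p = 0.000387), and the clones differed by −0.10 (SE 0.15, adjusted p = 0.645, edgeR). The tested gene next to St3gal5 on one side, Polr1a, differed by −1.02 in E3 (adjusted p = 0.00511) and by −0.15 in E5 (adjusted p = 0.667, edgeR). The one on the other side, Atoh8, differed by 2.32 in E3 (adjusted p = 0.00024) and by 0.44 in E5 (adjusted p = 0.354, edgeR). Both were thus called in E3, in opposite directions, and neither in E5.

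The more abundant ST3GAL genes are St3gal2 and St3gal1, which cap core 1 O-glycans, at 15.3 ± 0.378 and 12.5 ± 0.798 FPKM in WT. St3gal1 stood at 81.5, 83.3 and 91.7 CPM in WT, 163, 152 and 88.1 CPM in E3, and 125.5, 126 and 114.5 CPM in E5. In E3, replicates 1 and 2 lay above all other libraries and replicate 3 lay within the WT range. Its log2 fold change was 0.65 in E3 (SE 0.19, adjusted p = 0.026) and 0.51 in E5 (SE 0.19, adjusted p = 0.0841, edgeR). With replicate 3 of E3 left out it passed in both clones, at 0.88 in E3 (SE 0.07, adjusted p = 3.33e-06) and 0.52 in E5 (SE 0.07, adjusted p = 7.28e-05), and the clones then differed by −0.36 (adjusted p = 0.00179, edgeR). Without that library St3gal2 also passed in both clones, with 0.34 in E3 and 0.19 in E5 (adjusted p = 0.00091 and 0.0154, edgeR). St3gal6, which acts on N-acetyllactosamine chains, was lower in E3 (−0.83, SE 0.10, adjusted p = 0.000215) and differed by −0.20 in E5 (adjusted p = 0.182, and 0.0462 without replicate 3 of E3). Over 44.2% of its annotated exon length it overlaps Dcbld2 on the opposite strand, and the strand setting of the counting was not given in the sources used here. St3gal3 was 0.56 higher in E5 (SE 0.11, adjusted p = 0.00456, edgeR). The summed ST3GAL level was 42.0 ± 0.779 FPKM in WT, 51.9 ± 8.32 in E3 and 51.9 ± 1.79 in E5, and the single libraries of E3 were at 56.8, 56.6 and 42.3.

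St6gal1 supplies the α2,6-linked sialic acid of N-glycans and moved in opposite directions in the clones. It stood at 85.5, 80.4 and 82.1 CPM in WT, 72.7, 65.2 and 52.6 CPM in E3, and 114, 122 and 123 CPM in E5. The lines did not overlap. The log2 fold change was −0.38 in E3 (SE 0.12, adjusted p = 0.0325) and 0.53 in E5 (SE 0.12, adjusted p = 0.00951), and the difference between the clones was 0.91 (SE 0.12, adjusted p = 0.000276, edgeR). None of these reached the size needed for a call.

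The 2 expressed ST6GALNAC genes exchanged rank in E3. ST6GALNAC4 sialylates the GalNAc of sialylated core 1, and ST6GALNAC6 acts on gangliosides and on disialyl Lewis a. St6galnac4 was at 47.5, 48.8 and 48.6 CPM in WT, 29.1, 25.8 and 32.4 CPM in E3, and 41.8, 43.9 and 50.5 CPM in E5. St6galnac6 was at 35.0, 36.0 and 36.7 CPM in WT, 57.6, 57.6 and 68.6 CPM in E3, and 44.5, 40.3 and 37.8 CPM in E5. In E3 the first fell by 0.73 (SE 0.11, adjusted p = 0.000844) and the second rose by 0.77 on the log2 scale (SE 0.10, adjusted p = 0.000434, edgeR), while in E5 they differed from WT by −0.09 (adjusted p = 0.624) and 0.19 (adjusted p = 0.243, and 0.0407 without replicate 3 of E3). Per length, St6galnac4 made up 58.6% of the family in WT, 33.5% in E3 and 54.1% in E5, and the summed level of the family was 12.4 ± 0.216, 13.1 ± 1.37 and 12.7 ± 0.322 FPKM.

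St8sia1, the GD3 synthase, was the only ST8SIA gene tested of 6. Its level was 4.23, 3.47 and 5.13 CPM in WT, 10.0, 8.43 and 5.52 CPM in E3, and 1.96, 2.52 and 1.87 CPM in E5. The 3 lines did not overlap, although replicate 3 of E3 lay close to the highest WT library. E5 was 3.78-fold lower than E3 (log2 −1.92, SE 0.24, adjusted p = 0.000224, edgeR). Against WT the log2 fold change was −1.02 in E5 (SE 0.24, adjusted p = 0.0138), a call that was lost without replicate 3 of WT (−0.87) or without replicate 1 or 3 of E5 (−0.97 and −0.93). It was 0.90 in E3 (SE 0.23, adjusted p = 0.0137), and this became a call without replicate 3 of E3 (1.11) or replicate 3 of WT (1.05).

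Of the 8 fucosyltransferase genes, 5 were tested. Fut8, which adds the core fucose of N-glycans, was the most abundant at 13.5 ± 0.336 FPKM in WT, 12.9 ± 2.04 in E3 and 16.1 ± 0.975 in E5, and it passed the test in no comparison (smallest adjusted p = 0.0628). Fut10 did not pass in any comparison either. Without replicate 3 of E3, Fut8 passed in E5 (0.26, adjusted p = 0.0256) and between the clones (0.26, adjusted p = 0.0474), and Fut10 passed in E5 (0.27, adjusted p = 0.0024, edgeR). Fut4, which adds the fucose of Lewis x, was lower in E3 by 0.72 on the log2 scale (SE 0.14, adjusted p = 0.0032, edgeR) and differed by −0.18 in E5 (adjusted p = 0.395). Fut11 was 0.42 lower in E5 than in E3 (SE 0.13, adjusted p = 0.034, edgeR), and without replicate 3 of E3 it also passed against WT, with 0.21 in E3 and −0.33 in E5 (adjusted p = 0.0459 and 0.00278, edgeR). The summed level of the family was 27.3 ± 0.244 FPKM in WT, 26.2 ± 3.24 in E3 and 29.4 ± 1.16 in E5.

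Fut1, which makes the H antigen, was called at a level below 1 CPM in almost every library and is named here after its values were seen. It stood at 0.721, 0.904 and 0.929 CPM in WT, 0.180, 0.106 and 0.198 CPM in E3, and 0.280, 0.933 and 1.07 CPM in E5. The E3 libraries lay below all others, and replicate 1 of E5 lay apart from replicates 2 and 3. The log2 fold change was −2.38 in E3 (SE 0.49, adjusted p = 0.00462) and −0.15 in E5 (SE 0.40, adjusted p = 0.838), and 2.23 between the clones (SE 0.49, adjusted p = 0.00635, edgeR). Fut1 shares 245 exonic bases with Fgf21 on the opposite strand. Fgf21 itself differed by −2.61 in E3 (adjusted p = 0.00296), so reads of the shared bases cannot be told apart without the strand setting.

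Of the 31 tested members, 22 were called in no comparison. Their log2 fold changes ranged from −0.83 (St3gal6) to 0.77 (St6galnac6) in E3, from −0.41 (Galntl6) to 0.56 (St3gal3) in E5, and from −0.59 (St6galnac6) to 0.91 (St6gal1) between the clones. Of these 22, 12 had an adjusted p of at least 0.05 in all 3 comparisons, which does not show that they were equal. Without replicate 3 of E3, 8 of the 12 passed in at least 1 comparison and 4 (Galnt7, Galntl6, Gcnt1 and Gcnt2) passed in none. Galnt4 shares 99.96% of its exon length with Poc1b on the same strand, so its count is uncertain.

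The enzymes around these transferases were read from a list of 65 genes for sugar supply, underlying chains, removal, and carriers and readers, of which 53 were tested. In E3, 5 were called (1 higher and 4 lower), in E5, 8 (3 higher and 5 lower), and between the clones, 12 (6 in each direction), or 9.43%, 15.1% and 22.6% of those tested against 9.82%, 8.21% and 11.0% of all genes. The median log2 fold change of the list was 0.01 in E3 and −0.09 in E5. Of the 5 tested genes of GDP-fucose supply, none was called in either clone. Of the 6 tested genes of CMP-sialic acid supply, none was called against WT, and 1 was lower in E5 than in E3, Nans, the sialic acid phosphate synthase (a log2 fold change of −1.001, SE 0.13, adjusted p = 0.000331, edgeR). Against WT, Nans differed by 0.66 in E3 (SE 0.13, adjusted p = 0.00411) and by −0.34 in E5 (SE 0.13, adjusted p = 0.0974, edgeR). Without replicate 3 of E3 it also passed in E5 (−0.34, adjusted p = 0.00602, edgeR). The difference in Nans between the clones was −0.85 without that library, which is no longer a call. Nans lies among the 20 genes nearest to Galnt12.

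In the synthesis of glycosphingolipids, which St3gal5 and St8sia1 continue, the largest difference was in B4galt6. It encodes 1 of the lactosylceramide synthases, the other being B4galt5, and both act on the glucosylceramide that UGCG makes. B4galt6 stood at 0.821, 1.01 and 1.16 CPM in WT, 13.4, 15.7 and 10.9 CPM in E3, and had 0 counts in all 3 E5 libraries. The lines did not overlap: E3 was 13.4-fold above WT (log2 3.74, SE 0.21, adjusted p = 1.43e-05), and E5 was at least 16.2-fold below WT (adjusted p = 3.85e-05) and at least 216-fold below E3 (adjusted p = 3.83e-07, edgeR). B4galt5, the more abundant at 11.3 FPKM in WT against 0.160 for B4galt6, differed by 0.12 in E3 and −0.25 in E5 (adjusted p = 0.404 and 0.12), and Ugcg by −0.13 and −0.20 (adjusted p = 0.347 and 0.179). Without replicate 3 of E3, B4galt5 passed in both clones, with 0.22 in E3 and −0.25 in E5 (adjusted p = 0.0181 and 0.00586), and Ugcg passed in E5 (−0.20, adjusted p = 0.0149, edgeR).

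Downstream, B4galnt1, the GM2/GD2 synthase, was lower in E3. It stood at 11.999, 10.5 and 9.08 CPM in WT, 4.54, 3.87 and 4.84 CPM in E3, and 9.42, 11.1 and 11.3 CPM in E5. E3 lay below both other lines, which overlapped (log2 −1.25 in E3, SE 0.15, adjusted p = 0.000197, and 0.01 in E5, adjusted p = 0.971, edgeR, a value whose sign turned under other settings). A4galt, which makes the globoside Gb3, was at 3.05, 2.57 and 2.49 CPM in WT, 3.998, 1.65 and 3.98 CPM in E3, and 0.258, 0.412 and 0.647 CPM in E5. E5 lay below all other libraries (log2 −2.59, SE 0.39, adjusted p = 0.00107), and in E3 the difference was 0.25 (adjusted p = 0.612, edgeR).

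Ncam1, the main carrier of polysialic acid, was present at 21.2, 21.2 and 23.1 CPM in WT and 21.9, 19.1 and 15.4 CPM in E3, and the 3 E5 libraries held 0, 0 and 1 counts. E5 was at least 354-fold lower than WT with the floor of 3 counts per library (adjusted p = 1.96e-08, edgeR), and E3 differed from WT by −0.22 (adjusted p = 0.303). The 2 genes that build polysialic acid, St8sia2 and St8sia4, had no counts in any line. Podxl, a sialomucin, stood at 31.2, 36.1 and 39.8 CPM in WT, 16.6, 24.1 and 9.67 CPM in E3, and 67.1, 62.1 and 55.6 CPM in E5. It fell in E3 by 1.09 on the log2 scale (SE 0.26, adjusted p = 0.00974) and by 0.81 without replicate 3, which is no longer a call. In E5 its log2 fold change was 0.79 (adjusted p = 0.0518, and 0.0004 without replicate 3 of E3, edgeR).

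**Figure D5:**
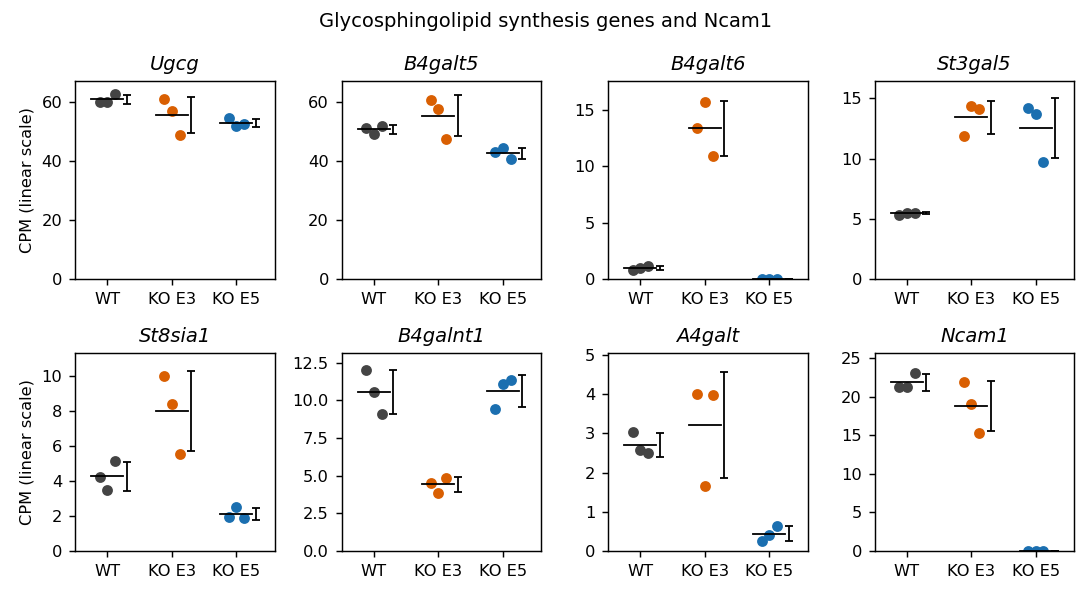
CPM on a linear axis from 0 in each library (points), with the mean as a line and the SD as a bar (n = 3), for 7 glycosphingolipid synthesis genes and Ncam1. B4galt6 is high in E3 and at 0 in E5, A4galt and St8sia1 are lowest in E5, B4galnt1 is lowest in E3, and Ncam1 is near 0 in E5 only.

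Among the branching enzymes, Gcnt4, another core 2 enzyme, was lower in E3 (log2 −2.38, SE 0.35, adjusted p = 0.000748) and higher in E5 (1.64, SE 0.27, adjusted p = 0.00192), and the clones differed by 4.02 (SE 0.34, adjusted p = 1.26e-05, edgeR). Its libraries were at 0.961, 1.49 and 1.499 CPM in WT, 0.320, 0.338 and 0.0880 CPM in E3, and 4.07, 4.12 and 4.16 CPM in E5, and the lines did not overlap. Mgat5, which adds the β1,6 branch of N-glycans, rose in E5 by 1.05 on the log2 scale (SE 0.18, adjusted p = 0.00225), with 26.9, 27.2 and 27.3 CPM in E5 against 12.9, 13.1 and 13.4 CPM in WT. In E3 its log2 fold change was −0.14 (adjusted p = 0.601, edgeR), and its libraries were at 13.4, 14.4 and 8.02 CPM. The clones differed by 1.19 (SE 0.18, adjusted p = 0.000734, edgeR), and by 0.98 without replicate 3 of E3, which is no longer a call.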

How the data were processed

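Paired-end reads of directional poly(A) libraries were checked with FastQC, trimmed with Trimmomatic and aligned with STAR (build GRCm39) by the authors, who deposited unnormalized gene counts of the 9 libraries. The counting tool, its strand setting and the annotation release were not given in the sources used here. The study itself used DESeq2. Here the deposited counts were fitted with edgeR 4.0.16 in R 4.3.3 (TMM scaling, filterByExpr with a minimum count of 10, quasi-likelihood test, 1 fit over all 3 lines with no covariate), and p-values were adjusted by the Benjamini-Hochberg method over 14593 genes. A call needed an adjusted p below 0.05 with a log2 fold change of more than 1 in size. CPM are TMM-scaled. Lengths for FPKM, overlaps and transcript starts came from GENCODE vM39 on GRCm39, which had the same gene extent as the deposited table for 10 of the 52 entries. The alternatives were DESeq2 1.42.0, other scalings, other count filters, fits of the 2 groups compared, transcript lengths, a replicate block, and each library left out in turn. The procedure was tested on simulated data with 1 common spread for all genes and libraries. That simulation held no library that stood apart as replicate 3 of E3 does here. The members, gene lists and tests were chosen with earlier results of these data known. Full values are given for members called in at least 1 comparison with an average log2 CPM above 0. They are also given for the up to 3 highest and 3 lowest called genes of the pathway list in each comparison at that level. Outside this rule, library values are given for Fut1, and for members called in no comparison (St3gal1, St6gal1, St6galnac4 and St6galnac6). No pairing of the libraries across lines by replicate number was seen, in a check that is weak with 3 libraries per line. The deposited table held no other columns of samples. Library totals of 44257404 to 55095219 and a biological coefficient of variation of 14.8% set the precision, and intervals from counts cover counting error only. One result of the sugar supply genes is not reported here.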

Additional observations from a re-analysis of the deposited data

Results flagged for a closer look

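For 7 transferase genes the difference between the clones, tested in the same fit (quasi-likelihood test of edgeR, Benjamini-Hochberg adjusted), was past the threshold, so that their change against WT was not the same in E3 and E5. On the log2 scale, E5 minus E3, it was −10.87 for Galnt12 (0 counts in E5, so the size depends on the prior count), −1.81 for Galnt13, 3.02 for Galnt15, −1.12 for Galnt18, 3.17 for Galnt3, −1.92 for St8sia1 and 2.23 for Fut1. The same held for 7 named genes of the surrounding pathway: −10.97 for Ncam1 and −12.33 for B4galt6 (both at or near 0 counts in E5), 1.88 for Podxl, −2.84 for A4galt, 1.26 for B4galnt1, 4.02 for Gcnt4 and 1.19 for Mgat5. In this comparison 11.0% of all genes tested were called, and 22.6% of the tested members. No group had the 4 samples needed to look for a single outlying library gene by gene.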

How the results depend on the processing

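The counts of members called were 4, 7 and 7 (E3 against WT, E5 against WT and E5 against E3) under DESeq2, DESeq2 size factors, upper-quartile scaling and fits of only the 2 groups compared, and 3, 6 and 5 with at least 10 counts asked of every library. With a replicate block they were again 4, 7 and 7, and at an adjusted p under 0.05 alone 14, 9 and 14. The block changed no call among the members. Same-numbered libraries correlated between −0.172 and 0.047 and the other pairs between −0.161 and 0.183, so no pairing by number was seen. With so few libraries per line this check is weak and cannot exclude a pairing. The filter of 10 counts, which removes genes at 0 in 1 line, left 3 and 4 pathway genes called in E3 and E5 (5 and 8 as reported) and 828, 571 and 836 of all genes called (1433, 1198 and 1606). With only WT and E5 in the fit, 20 members and 6596 of all genes passed an adjusted p under 0.05 (9 and 3012); the cause was not tested. Leaving out 1 library at a time gave 4 to 5, 6 to 7 and 6 to 8 members called, 8 to 20 members and 1767 to 6246 of all genes at an adjusted p under 0.05 in E5, and 2875 to 6423 of all genes in E3; the highest values in E5 came without replicate 3 of E3. Among the genes given in full, signs turned for small differences: Galnt12 in E3 was 0.0207 under upper-quartile scaling and between −0.1214 and 0.0208 with libraries left out, St3gal5 between clones −0.204 to 0.0602, Fut1 in E5 −0.49 to 0.23, Mgat5 in E3 −0.2968 to 0.0775, and B4galnt1 in E5 −0.0045 under upper-quartile scaling, −0.0015 with no filter and −0.0901 to 0.1113 with libraries left out. Upper-quartile scaling shifted the median of all genes by 0.09 in E3 and −0.10 between the clones. With the longest transcript as length, 26 members were above 1 FPKM in WT, against 24.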
